A study of Bos taurus with 12 samples.

Results

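The transcripts of granulosa cells from large bovine follicles were compared with those from small follicles. The comparison used the 4 arrays whose sample titles name granulosa cells of large or small follicles, 2 of each size, out of 12 arrays in the series. Every probe set that is not a control entered it, 24016 in all, and 17236 of these were bright enough to test. The other arrays held granulosa cells of medium follicles and theca cells of the same 3 sizes, 2 arrays per group. A follicle counted as small at a diameter of 5 mm or less, as medium between 5 and 10 mm and as large above 10 mm. In both groups the ovaries came from untreated, cycling heifers in the follicular stage, recognised because no corpus luteum was seen. Each RNA sample was a pool, of 20 to 40 follicles according to the extraction protocol, or of 20 to 40 ovaries of 6 to 10 animals according to the design text. The labels do not say whether pools shared animals, so a p-value here measures the spread between pools and not between heifers. The description field names theca cells for every sample, and the titles were followed instead.

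Granulosa cells line the antral follicle from the inside, under the control of follicle-stimulating hormone. As a follicle becomes dominant they turn androgens from the theca into oestradiol with the enzyme aromatase, and they acquire the receptor for luteinising hormone. No blood vessel crosses the basement membrane between them and the theca before ovulation. Macrophages and other leukocytes are known residents of the theca, and the cells recovered by opening a follicle can include leukocytes beside granulosa cells. An array of such a pool reads all of them at once, so more cells of a kind and more RNA per cell cannot be told apart.

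Cell type markers were set against the titles first. The 9 tested genes of theca steroid cells summed to signals of 4381 to 6130 on the 4 arrays compared, against 23699 to 36364 on the 6 theca arrays. The 17 tested granulosa markers summed to 36538 to 54421, against 15203 to 42231 on theca arrays. One array stood apart. Large granulosa replicate 1 (called large 1 here, and the others likewise) had a median signal of 48.8 against 33.7 to 39.2 elsewhere. Its actin control gave 21.0 times the signal at the 3' end over the 5' end, against 2.39, 3.97 and 5.77 on small 1, small 2 and large 2. The same ratio of the GAPDH control was 1.15 on large 1, against 1.05, 1.07 and 1.03 on those arrays. Added spike-in controls reached a geometric mean of 1308 on large 1 and 670 to 769 on the other 3. Spearman correlations over probe sets were 0.926 between the small arrays, 0.896 between the large arrays and 0.852 to 0.905 across sizes. The part of these array differences in the results below was not tested, so each large array is reported on its own.

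Between small and large follicles the granulosa samples changed mostly upwards. The largest rises of named genes included aromatase and genes known from leukocytes. Changes are given as log2 differences of signal + 16, large minus small, with the standard error of the limma model and n = 2 arrays per group. Of the 17236 probe sets tested, 382 passed an adjusted p of 0.05 in limma's moderated test, which is 2.22%. Of these, 313 rose (1.82% of those tested) and 69 fell (0.4%). Each count of called list genes below is to be read beside these shares. The rises belonged to 205 named genes and 73 probe sets without a gene name, the falls to 36 named genes and 32 unnamed probe sets. Every call was at least 2-fold on this scale, with 58 rises and 1 fall of 8-fold or more. After each array was centred on its median, the median change of all tested probe sets moved from 0.04 to -0.14. The share of rises among calls then went from 81.9% to 64.7%.

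The rises were larger on large 1 than on large 2, and the falls were not. Among the 313 rises, 282 were larger on large 1, with a median change of 2.84 there and 1.74 on large 2, and 310 were at least 2-fold on both. Among the 69 falls, 31 were larger on large 1, with medians of -1.78 and -1.89, and all 69 were at least 2-fold on both arrays. How many probe sets passed rested on single arrays. Without large 1 limma called 0 probe sets, with 1780 at an unadjusted p under 0.05, and without large 2 it called 635. The count was 2 without small 1 and 61 without small 2. Without both large 1 and theca small 1, an array whose GAPDH control was 8.36 times brighter at its 3' end, it was 58 (0.337% of those tested). In each of these fits the lone array of a size was assumed to vary like the other groups. Those 58 were 43 rises (0.249% of those tested) and 15 falls (0.087%), and 47 of them were among the 382.

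**Figure D1:**
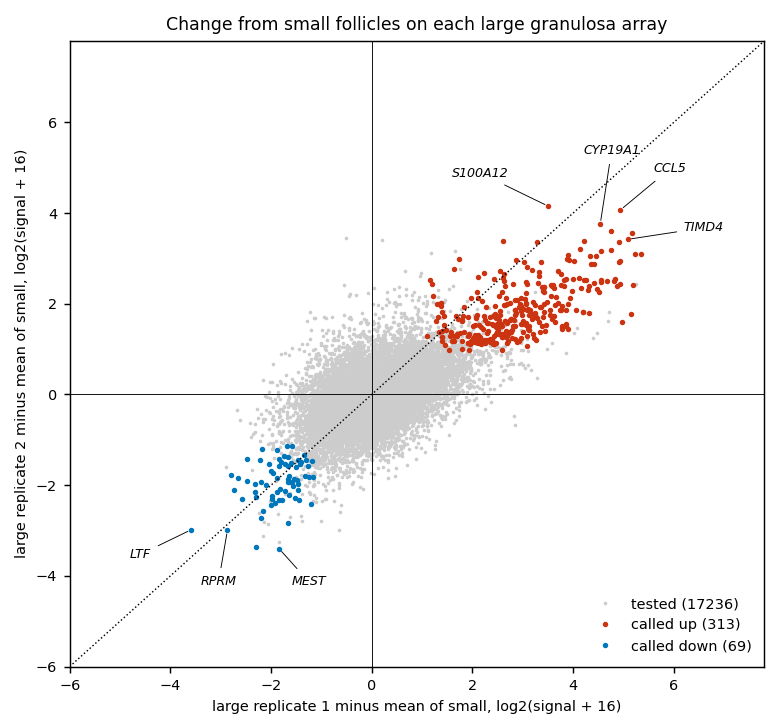
Change of each tested probe set from the mean of the small granulosa arrays on large replicate 1 (horizontal axis) and on large replicate 2 (vertical axis), in log2(signal + 16), with calls of limma in red (313 up) and blue (69 down) and the dotted line where both replicates are equal. Most red points lie below the line, towards large replicate 1, while the blue points lie on both sides of it.

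Aromatase, CYP19A1, which converts androgens into oestrogens, rose strongly. Its signal was 113 and 126 on the small arrays and 3134 and 1820.5 on the large ones. The sizes did not overlap, and the change was 4.15 ± 0.63, or 17.7-fold (limma, adjusted p = 0.00587). A second, dimmer probe set of the gene gave 2.52 and was called too. Medium follicles already stood at 3114 and 1819.7, the same range as the large ones. Of 13 tested genes of oestradiol synthesis and steroid enzymes CYP19A1 was the only one called, at a list median of 0.00 against 0.04 for all probe sets.

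The other 12 steroid genes of the list were not called. CYP17A1, FDX1, NR5A2 and HSD3B1 among them were higher on both large arrays than on both small ones. Such a rise without overlap held for 21.9% of all tested probe sets. CYP11A1, which cuts the cholesterol side chain, read 1560.2 and 1916 on the small arrays and 1793 and 3502 on the large ones (0.53 ± 0.39). STAR, the carrier of cholesterol into mitochondria, overlapped between sizes (-0.36 ± 0.67), and so did HSD17B1, which makes oestradiol from oestrone (-0.59 ± 0.66). HSD3B1, which makes progesterone, differed by 0.23 ± 0.37. CYP17A1, the theca enzyme for androgens, read 26.5 and 39.2 on the small arrays, 50.1 on large 1 and 228 on large 2 (1.39 ± 0.57, adjusted p = 0.27 in limma). Its higher value was thus on large 2, opposite to most rises. Outside the list, HSD17B14, a hydroxysteroid dehydrogenase picked after its values were seen, rose from 2.9 and 16.2 to 62.2 and 65.5 (1.69 ± 0.34, limma, adjusted p = 0.0193).

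Genes of hormone reception and of the inhibin family did not pass either. LHCGR, the receptor for luteinising hormone, read 3.1 and 9.8 on the small arrays and 41.4 and 39.8 on the large ones. The sizes did not overlap, but the change of 1.35 ± 0.36 missed the threshold (limma, adjusted p = 0.0716). FSHR, the receptor for follicle-stimulating hormone, gave 149 and 160.1 in small follicles against 152 and 53 in large ones (-0.66 ± 0.64). INHBA, a subunit shared by inhibin and activin, went from 1205 and 1078 to 5342 and 2959 (1.79 ± 0.50, limma, adjusted p = 0.085). It was 6564 and 5362 in medium follicles. INHA, the inhibin alpha subunit, differed by 0.93 ± 0.41, and FST, which binds activin, by -0.06 ± 0.47. AMH, the anti-Mullerian hormone of small follicles, read 428 and 861 on the small arrays and 250.3 and 122 on the large ones (-1.70 ± 0.57, limma, adjusted p = 0.163). None of 12 tested genes of gonadotrophin reception and cAMP signalling and none of 24 genes of the inhibin, activin, BMP and TGF-beta system was called.

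**Figure D2:**
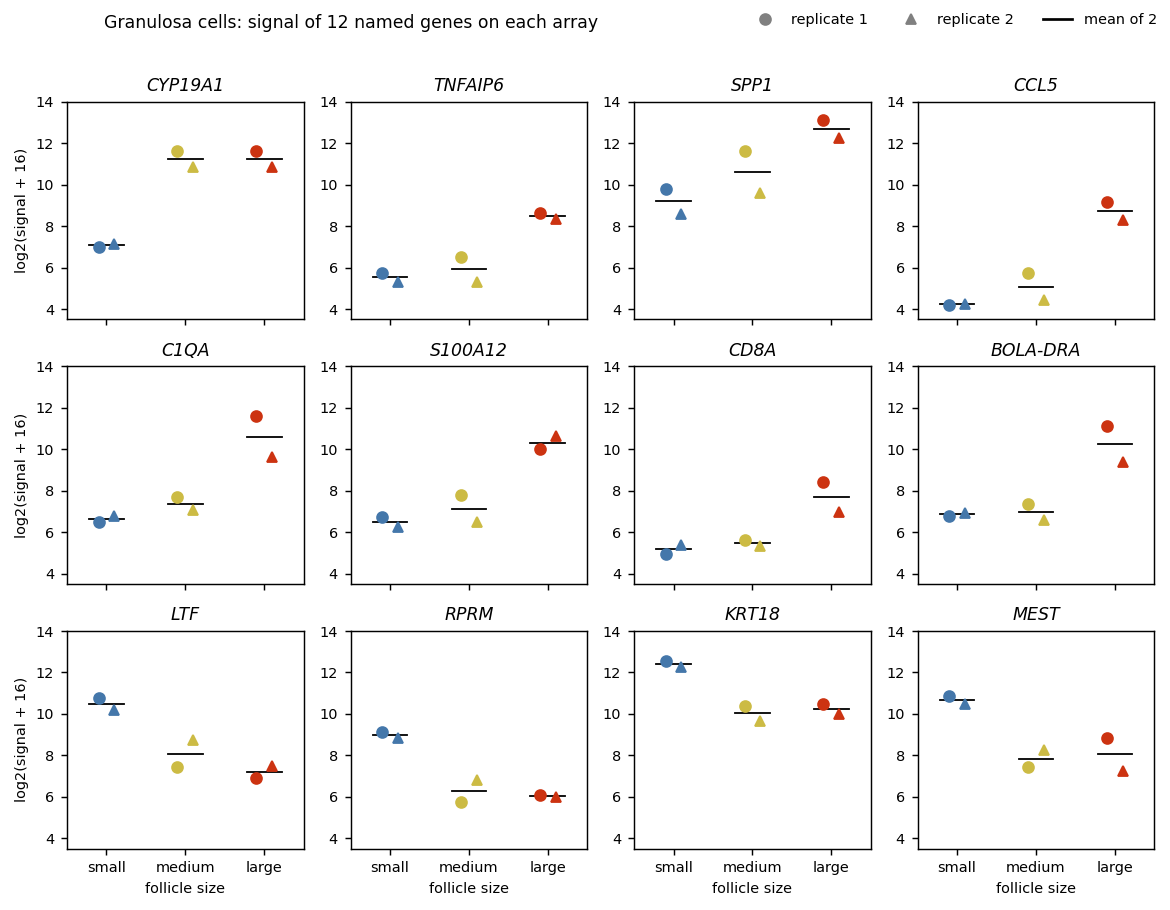
Signals of 12 named genes on the 6 granulosa arrays by follicle size, in log2(signal + 16), with circles for replicate 1, triangles for replicate 2 and a line at the mean of both. CYP19A1 reaches its large level in medium follicles, and CCL5, C1QA, CD8A and BOLA-DRA stand high on the large arrays. LTF, RPRM, KRT18 and MEST are lower on the medium and large arrays than on the small ones.

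Genes of secreted matrix and ovulation-related proteins showed a few large rises. SPP1, the secreted phosphoprotein osteopontin, read 884 and 369.5 on the small arrays and 8789 and 4914 on the large ones, a change of 3.48 ± 0.72 (limma, adjusted p = 0.0218). TNFAIP6, which links hyaluronan chains in the expanding cumulus matrix, went from 37.3 and 23.8 to 377 and 307 (2.95 ± 0.60, limma, adjusted p = 0.0192). Both large arrays lay close together for it, and its second probe set gave 2.91. CD44, the cell surface receptor for hyaluronan, was 53.4 and 80.8 in small and 337 and 344 in large follicles (2.12 ± 0.45). TNFAIP6 and CD44 were the 2 genes called among 14 tested on the ovulatory cumulus and hyaluronan list, with 0 falls. PTGS2, HAS2 and PTX3, which rise in ovulatory follicles, gave -0.65, -0.24 and -0.51 and were not called.

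Proteases formed a further set. Of 21 tested matrix proteases and inhibitors 5 rose and 0 fell, against 1.82% and 0.4% of all tested probe sets. The list median was 0.66 (0.40 on large 1 and 1.004 on large 2). PLAU, the urokinase that activates plasminogen, went from 53.9 and 51 to 704 and 319 (2.84 ± 0.44, limma, adjusted p = 0.00631). MMP19, a metalloprotease, read 76 and 111 on the small arrays and 1564 and 378 on the large ones, so its change of 2.87 ± 0.64 was far larger on large 1 (3.87) than on large 2 (1.86). CTSK, a cathepsin that cuts collagen, rose by 1.81 ± 0.43, and MMP9, a gelatinase that neutrophils store, by 1.67 ± 0.36. MMP9 was 33.9 on large 1 and 58 on large 2. CTSS, a cathepsin of antigen-presenting cells, was the fifth. The tissue inhibitors TIMP1, TIMP2 and TIMP3 gave 0.53, 0.45 and -0.49 and were not called. TNC, the matrix glycoprotein tenascin C, rose by 2.09 ± 0.35, from 19.2 and 24.2 to 165 and 127.

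Macrophage genes had the highest median change of the 36 lists examined, except with log2(signal + 1), where it was 3.53 against 3.59 for blood myeloid genes. Of 30 listed genes 22 were tested, and 16 of these rose and 0 fell, against 1.82% of all probe sets that rose. Their median change was 3.14, with 3.76 on large 1 and 2.44 on large 2. In 20 of the 22 the large arrays lay above the small ones without overlap, which held for 21.9% of all tested probe sets, and in 0 of them lay below, which held for 19.3%. The 22 genes summed to signals of 4445 and 5739 on the small arrays, 5766 and 5000 on the medium ones, and 37216 and 12287 on large 1 and large 2. On the theca arrays the sum was 4312 to 10880. Without both arrays that stood apart 5 of the 22 were called. Without large 1 alone 0 were called, without small 1 also 0, and without small 2 there were 6.

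The complement gene C1QA, which encodes a chain of the C1q molecule that macrophages make, read 75.2 and 95.6 on the small arrays, 3081 on large 1 and 763 on large 2. The change was 3.94 ± 0.51 (15.4-fold, limma, adjusted p = 0.00398). Both large arrays were far above both small ones, and large 1 was brighter than large 2. The other chains followed the same order, with C1QB at 3.59 ± 0.57 and C1QC at 3.68 ± 0.62. TIMD4, a receptor for phosphatidylserine on macrophages that engulf dying cells, went from 3.7 and 6.9 to 707 and 212 (4.25 ± 0.65). CD5L, which macrophages secrete, went from 17.9 and 3 to 1023 and 201 (4.23 ± 0.66). CD68, a lysosomal protein used as a macrophage marker, read 84.1 and 99.5 on the small arrays and 3038 and 610.5 on the large ones (3.69 ± 0.68). CD14, the coreceptor for lipopolysaccharide, rose by 3.67 ± 0.49 on its brighter probe set and by 2.54 on the other. CSF1R, the receptor for the macrophage growth factor, rose by 3.20 ± 0.49, from 6 and 15 to 365 and 135. AIF1, TYROBP, LAPTM5, VSIG4, CYBB, NCF1 and FCER1G rose by 2.65 to 3.27.

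On their brightest probe sets, 6 of the tested macrophage genes were not called. MERTK, an engulfment receptor, gave 0.19, the haem oxygenase HMOX1 0.94, the oxidase subunit NCF4 1.01, the cathepsin CTSB 1.42 and the lipid carrier APOE 1.52. A second probe set of CTSB was called, at 1.95 ± 0.46 (limma, adjusted p = 0.0394). MSR1, a scavenger receptor of macrophages, gave 2.16. Without large 1 and theca small 1, the calls that stayed were TIMD4, C1QA, CSF1R, CYBB and NCF1, each with an adjusted p of 0.0363 in limma. C1QB missed it at 0.0571 with a change of 2.51, and CD68 at 0.133 with 2.54.

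**Figure D3:**
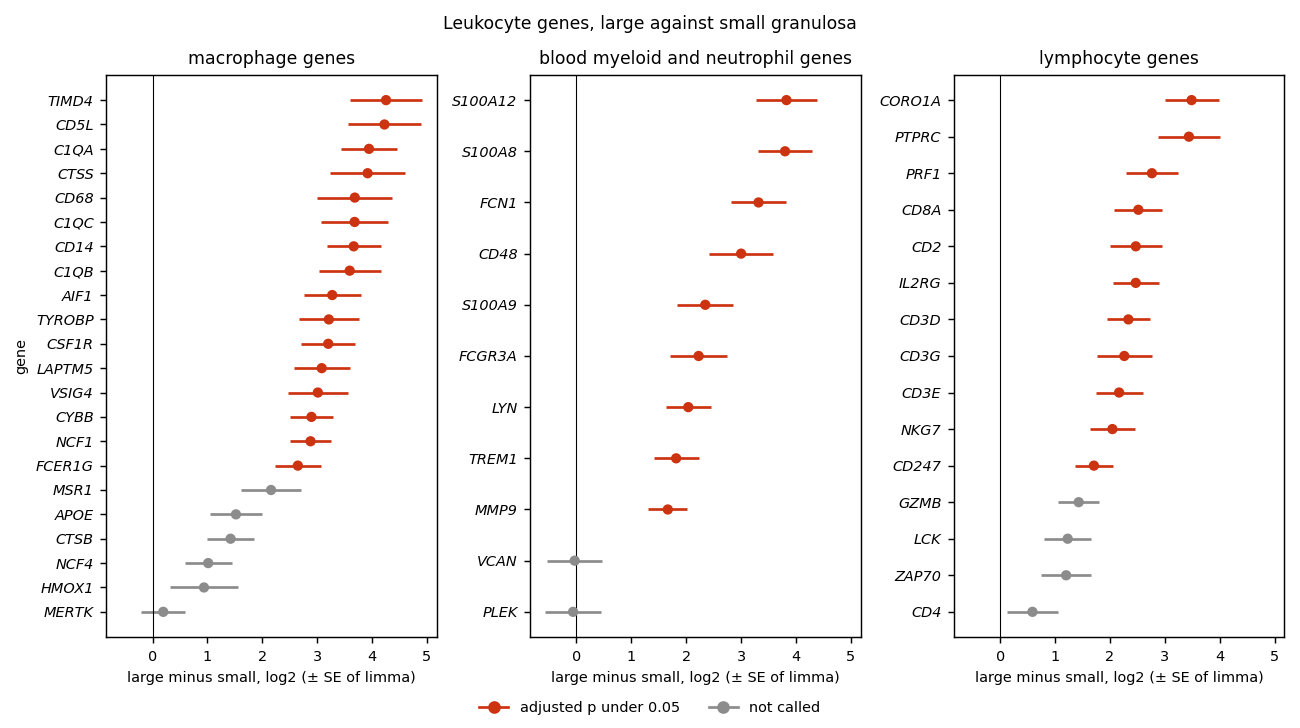
Change from small to large granulosa for every tested gene of the macrophage, blood myeloid and lymphocyte lists, in log2(signal + 16), with bars of 1 standard error of the limma model and red points where the adjusted p is under 0.05. Red points are 16 of 22, 9 of 11 and 11 of 15 genes, and the largest changes exceed 4.

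Genes of neutrophils and blood monocytes rose as well. Of 16 listed genes 11 were tested, of which 9 rose and 0 fell, at a median of 2.23 (2.69 on large 1 and 1.95 on large 2). S100A12, a calcium-binding protein of neutrophils and monocytes, read 89.8 and 59.9 on the small arrays, 1002 on large 1 and 1576 on large 2. The change was 3.83 ± 0.55 (14.2-fold, limma, adjusted p = 0.00453), and large 2 was the higher array. S100A8, its relative, went from 41.7 and 29.2 to 932 and 519.8 (3.80 ± 0.49), and FCN1, a lectin of monocytes, from 15 and 35.3 to 372 and 393 (3.32 ± 0.51). TREM1, an amplifying receptor of myeloid cells, was 78.1 on large 1 and 209 on large 2, and rose by 1.82 ± 0.41. FCGR3A, an antibody receptor, was 219 and 40.2 instead. VCAN and PLEK gave -0.03 and -0.06. The 11 genes summed to 1138 and 1009 on the small arrays and to 4594 and 3733 on the large ones. That sum on theca arrays was 431 to 1319, below both large granulosa arrays. In the fit without both arrays that stood apart 3 of the 11 were called, S100A12, S100A8 and TREM1.

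Lymphocyte genes, mostly of T and killer cells, rose too. Of 24 listed genes 15 were tested, of which 11 rose and 0 fell, at a median of 2.26 (2.87 on large 1 and 1.51 on large 2). The T cell receptor components CD3D, CD3E and CD3G changed by 2.34, 2.17 and 2.26. CD3E read 24.9 and 47.6 on the small arrays and 348 and 128 on the large ones (± 0.43, limma, adjusted p = 0.0171). CD8A, the coreceptor of cytotoxic T cells, went from 14.7 and 26.2 to 324 and 109 (2.52 ± 0.44). PRF1, the pore-forming perforin of killer cells, went from 16.1 and 24.9 to 391 and 133 (2.76 ± 0.47). For all 3 genes, large 1 was higher than large 2 and both were above the small arrays. CD4, the coreceptor of helper T cells, gave 0.59 and was not called, nor were GZMB, LCK and ZAP70 with 1.20 to 1.43. PTPRC (CD45), which all leukocytes carry, rose by 3.44 ± 0.57, from 25.6 and 3.8 to 597 and 142. Its other probe sets gave 1.40 and 2.19 and were called too. The list summed to 284 and 372 on the small arrays and to 4529 and 1728 on the large ones, with 543 to 912 on theca arrays. In the fit without both arrays that stood apart 0 of the 15 were called.

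Antigen presentation by MHC class II moved with these genes. Of 13 tested genes 8 rose and 0 fell, at a median of 2.78 (3.18 on large 1 and 2.05 on large 2). BOLA-DRA, the alpha chain of the bovine DR molecule, read 95.4 and 105 on the small arrays and 2204 and 651 on the large ones (3.39 ± 0.48, 10.5-fold, limma, adjusted p = 0.00419). BOLA-DRB3, its beta chain, rose by 3.35 ± 0.52, and BOLA-DMB, part of the molecule that loads peptides, by 3.17 ± 0.53. IFI30, a thiol reductase that unfolds antigens in lysosomes, went from 151 and 193 to 1676 and 1242 (2.97 ± 0.35), with both large arrays close together. BOLA-DRA and IFI30 were called without both arrays that stood apart. The genes of this family are alike in sequence, so a probe set may read more than 1 of them. BOLA-DQB1 and BOLA-DQA2 were not called on their brightest probe sets, but dimmer ones of both were. The list summed to 998 and 1655 on the small arrays, 15385 and 6946 on the large ones and 4126 to 6609 on theca arrays.

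Chemokines were the next set, and CCL5 led all named genes. CCL5, which draws T cells and monocytes, read 2.4 and 2.9 on the small arrays and 557 and 297 on the large ones. The change was 4.50 ± 0.44 (22.7-fold, limma, adjusted p = 0.00116). Its small values lie far below the 16 added before the log, so the fold is a property of that scale. Of 16 tested chemokines and receptors 8 rose and 0 fell, at a median of 1.58 (1.87 on large 1 and 1.65 on large 2). CXCL16, made by macrophages, rose by 2.98 ± 0.46 and CCL2, which draws monocytes, by 2.87 ± 0.57. CCL4 rose by 2.86, CCL8 by 2.35, CCL3 by 2.05, CXCL5 by 1.70 and CXCL8 by 1.47. CXCL8, the main attractant of neutrophils, stayed dim, from 0.7 and 1 on the small arrays to 36.4 and 25.4 on the large ones. CCL5 and CCL8 were among the 3 called without both arrays that stood apart. CXCL12, a chemokine of stroma, gave 1.01 and CXCL14 -0.50, and neither was called.

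Interferon and cytokine genes moved less. Of 21 tested interferon response genes 3 rose and 0 fell, at a median of 1.19, which was 1.57 on large 1 and 0.88 on large 2. The 3 were IRF8, a transcription factor of myeloid cells (2.23 ± 0.53), the DNA sensor IFI16 (1.92 ± 0.47) and B2M, the light chain of MHC class I (1.90 ± 0.44). B2M went from 1851 and 1672 to 9868 and 4443. ISG15, MX1 and MX2, classical interferon targets, gave 1.98, 1.09 and 1.37 and were not called. Among 15 cytokine genes 2 rose, SPP1 and IL1RN. IL1RN, the antagonist of the interleukin 1 receptor, rose by 1.88 ± 0.42, with 206 on large 1 and 219.7 on large 2. IL1B and TNF gave 0.69 and 0.61 and were not called. UBD, a ubiquitin-like modifier that inflammatory signals induce, rose by 3.86 ± 0.44, from 52 and 36.7 to 1387 and 519.7.

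Secreted defence proteins moved both ways. Of 14 tested genes 6 rose and 2 fell. The ribonucleases BRB and RNASE6 rose by 4.18 ± 0.56 and 4.13 ± 0.52. RNASE6, an antimicrobial ribonuclease, went from 40.9 and 44.7 to 1759.6 and 584. The complement genes CFD, C3 and CFB rose by 3.36, 2.36 and 2.05. For CFB the large arrays read 75.2 and 84.6, and for CFD 989 and 249.5. SERPING1, the inhibitor of the first complement component, fell instead, from 567 and 814 to 227 and 126 (-1.91 ± 0.41, limma, adjusted p = 0.0272), though its second probe set gave -0.87. LTF, the iron-binding protein lactoferrin, had the largest fall of all named genes and is described below. UCP2, a carrier of the inner mitochondrial membrane that leukocytes hold in plenty, rose by 2.89 ± 0.37, from 1.7 and 10.2 to 214 and 94.7. RARRES1 and ALDH1A1, both on the list of retinoid handling genes, rose by 2.98 ± 0.53 and 2.45 ± 0.51. ALDH1A1 was 498 on large 1 and 140.3 on large 2.

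Markers of red blood cells and of the other cells a follicle wall holds were not called, except MYH11, ALDH1A1 and APOD. The 15 tested endothelial markers gave 0 calls and a median of 0.65. Their sum was 362 and 431 on the small arrays, 888 and 596 on the large ones and 777 to 2797 on theca arrays. PECAM1, a junction protein of endothelium and leukocytes, differed by 1.10, VWF, the clotting factor of endothelium, by -0.10. The 17 fibroblast and stroma markers gave 0 calls, with sums of 5342 and 7137, 5833 and 8592, and 32920 to 41661 in the same order. Of 6 red blood cell genes 0 were called, and the sums were 439 and 607, 1360 and 1329, and 79 to 362. HBB, the beta chain of haemoglobin, read 7.9 and 17.1 on the small arrays, 578 on large 1 and 50.4 on large 2 (2.82, limma, adjusted p = 0.063). Of 13 smooth muscle genes MYH11 fell, and of 9 theca steroid cell markers ALDH1A1 rose and APOD fell. INSL3, a hormone of theca cells, gave -0.16. The 6 oocyte markers gave 0 calls. What part cells of blood or theca had in the rises was not tested.

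The falls formed a shorter and more mixed set. LTF read 1713 and 1154 on the small arrays and 102 and 164 on the large ones, a change of -3.29 ± 0.46 (9.76-fold lower, limma, adjusted p = 0.00419). RPRM (reprimo), a p53 target that arrests the cell cycle, went from 539.9 and 438 to 52.8 and 46.8 (-2.93 ± 0.41). The large arrays lay close together for both genes and far below the small ones. MYH11, the myosin heavy chain of smooth muscle, went from 1097 and 712 to 168 and 71.8 (-2.83 ± 0.50). MEST, an imprinted gene expressed in fetal growth, went from 1828 and 1406 to 437 and 137, a change of -2.62 ± 0.61 (limma, adjusted p = 0.039). Its large arrays differed by 1.57 from each other on the log2 scale, and the other probe sets of the gene gave changes as small as -0.53. KRT18, an epithelial keratin and granulosa marker, went from 5964 and 4945 to 1425 and 1019 (-2.16 ± 0.40, 4.46-fold lower, limma, adjusted p = 0.0118). Its partner KRT8 gave -0.19 and was not called.

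Genes of hormone and growth factor action were among the falls. INSR, the insulin receptor, went from 558 and 360.5 to 186 and 71.1 (-1.81 ± 0.42, limma, adjusted p = 0.0413), and its 4 probe sets ranged from -1.89 to -0.37. STC1, the glycoprotein hormone stanniocalcin, went from 1672 and 899 to 382 and 308 (-1.79 ± 0.42). These were the calls among 11 IGF system genes. IGF1R (-1.49), IGFBP2 (-1.70), IGF1 (0.64) and the brightest probe set of IGF2 (1.43) were not called. IGFBP2, a binding protein of small follicles, read 391 and 194 on the small arrays and 91.9 and 59.6 on the large ones (limma, adjusted p = 0.164). GAL, the neuropeptide galanin, fell by 1.95 on the log2 scale, and PPP1R1B, a phosphatase inhibitor controlled by cAMP, fell by 2.14. COL4A4, a chain of type IV collagen in basement membranes, went from 126 and 126 to 35.4 and 16.7 (-1.79 ± 0.43). COL4A1 and COL4A3 gave -0.44 and -0.58 and were not called.

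The remaining named falls spanned metabolism, chromatin and secretion. DDO, which degrades D-aspartate, changed by -2.42 ± 0.44, the histone variant MACROH2A2 by -2.20 ± 0.41 and the zinc finger factor SALL2 by -1.86 ± 0.36. HAPLN3, a link protein of hyaluronan matrix, fell by 2.25 and SPON1, a secreted matrix protein, by 2.02 on the log2 scale. APOD, a lipid carrier, went from 989.8 and 514 to 196 and 130.5 (-2.05 ± 0.39). AP3B2, a subunit of a vesicle adaptor, fell by 2.25 and NUDT11, which cleaves inositol pyrophosphates, by 2.28. TULP3, which acts at the primary cilium, fell by 1.83 and CCDC8 by 1.80. Weaker falls came from other probe sets of some of these genes. The weakest were -0.77 for SPON1, -0.91 for SALL2, -1.25 for NUDT11 and -1.15 for APOD. Some of the 70 named genes that were called had been picked because they stayed called without large 1 and theca small 1. Their share among the 70 thus does not stand for all calls. The falls among the 70 that stayed called in that fit were RPRM, MYH11, MEST, AP3B2, INSR and COL4A4. The rises among the 70 that did so were CCL5, TIMD4, BRB, RNASE6, C1QA, UBD, S100A12, S100A8, ARHGDIB, BOLA-DRA and UCP2. Rises outside the 70 stayed called too, among them CSF1R, CYBB, NCF1, IFI30, CCL8, TREM1, TTR and SLC2A5. All 70 kept their direction, which leaving out arrays could not reverse, since their large and small arrays did not overlap.

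Medium follicles, measured on 2 further arrays, were close to small ones for most rises and closer to large ones for many falls. The values are a description, since no contrast with the medium arrays was tested here, although these arrays entered the filter and the estimate of the spread. At the medium size the median of the 313 rises stood at 0.38 above small, or 16.9% of the whole change, and 14 of them had gone over 50% of it. The 69 falls stood at -0.81, or 41.8%, and 29 of them had passed 50%. CYP19A1 was an exception among the rises. RPRM was at 38.1 and 97.1 in medium follicles, and KRT18 at 1318 and 801, both nearer to the large arrays than to the small ones. LTF was between, at 155 and 408. SPON1 did not follow them, with 832 and 1312 in medium follicles against 794 and 711 in small and 192 and 156 in large ones. CCL5 read 37.9 and 5.3 in medium follicles, and C1QA 189.6 and 118, nearer to the small arrays.

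**Figure D4:**
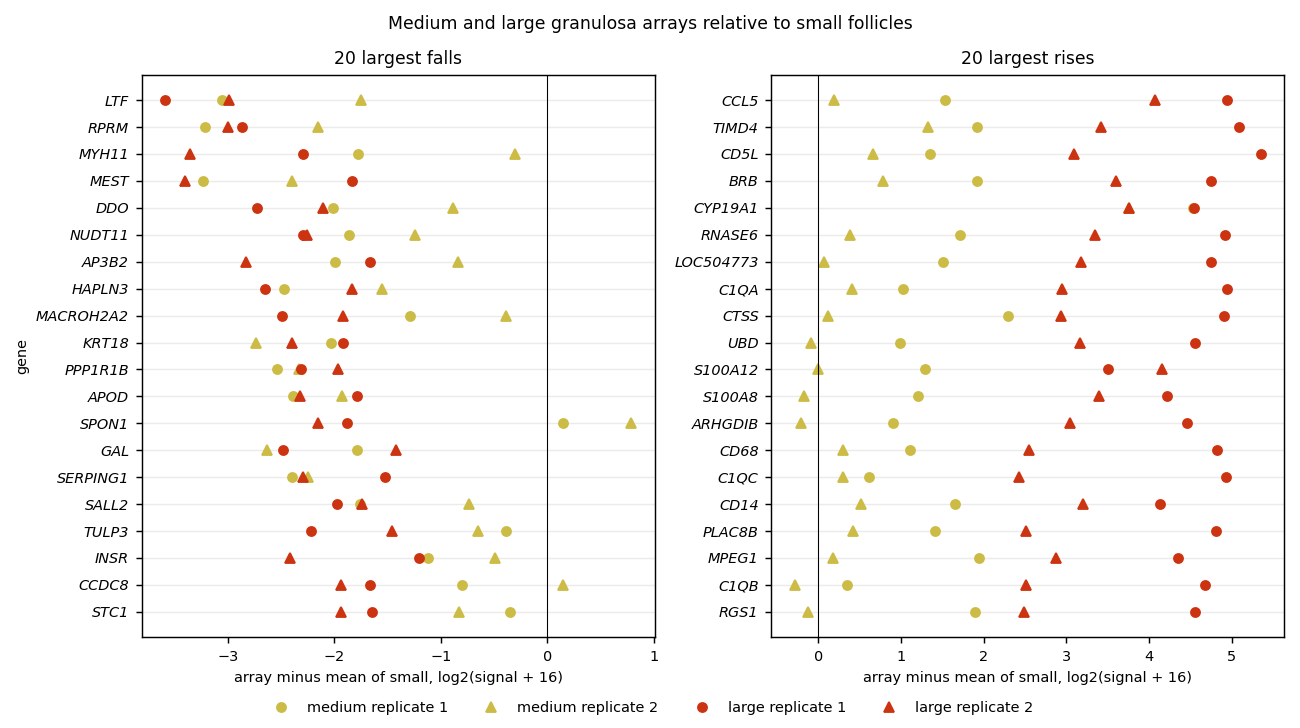
The 20 largest falls (left) and rises (right) among named genes, as the difference of each medium and large granulosa array from the mean of the small arrays, in log2(signal + 16). On the right the medium arrays lie below both large arrays except for CYP19A1, whose medium points are hidden under the large ones, and on the left many medium arrays, such as those of RPRM and KRT18, reach the large ones.

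Lists of general cell functions gave few or 0 calls, although a missed threshold does not show that their genes were level. Of 34 cell cycle and DNA replication genes 0 were called, at a median of 0.03, with CCND2, the cyclin of granulosa proliferation, at -0.63 ± 0.39. Of 10 cell cycle inhibitors and p53 targets RPRM was the called one, while CDKN1A gave 0.39. The 11 apoptosis genes, 18 cholesterol genes, 24 antioxidant genes, 15 WNT and NOTCH genes, 25 hypoxia and glycolysis genes and 23 immediate early and heat shock genes gave 0 calls each. The same held for 36 ribosomal protein genes (median 0.05) and 42 oxidative phosphorylation genes (median 0.09). The 17 granulosa markers had a median of -0.40, with CYP19A1 up and KRT18 down. Of 16 imprinted genes MEST was called. In all, 54 of the 205 named genes that rose stood on the 5 lists of macrophage, blood myeloid, lymphocyte, MHC class II and chemokine genes, and 0 of the 36 that fell. These lists held 76 of the 7893 genes tested, or 0.963%, and they were chosen with earlier results of these data known.

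**Figure D5:**
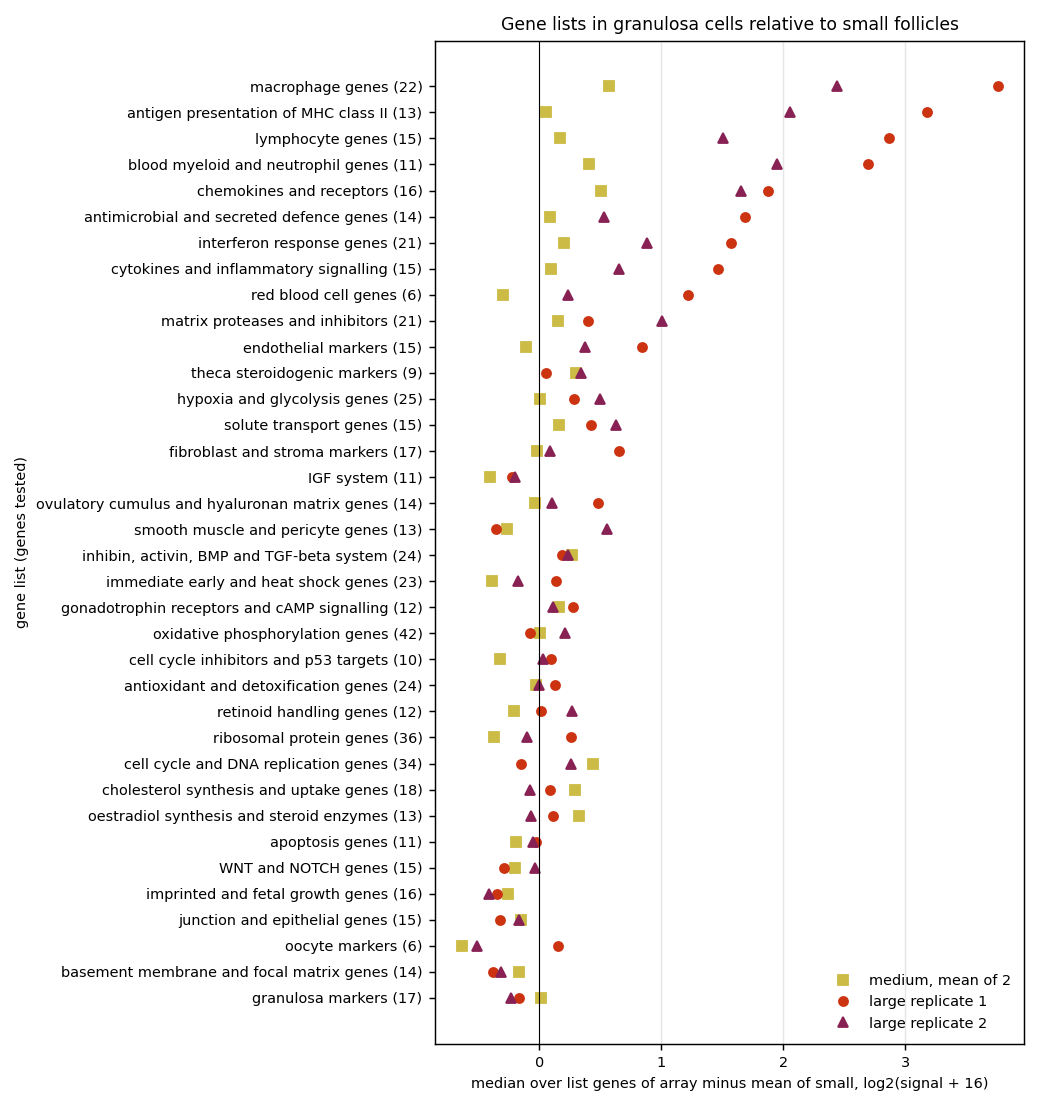
Median over the tested genes of each list of the difference from the mean of the small granulosa arrays, in log2(signal + 16), for medium follicles (mean of 2 arrays) and for each large array. The macrophage list lies farthest right at 3.76 for large replicate 1 and 2.44 for large replicate 2, and most other lists lie near 0.

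The same size step in theca cells was set beside the granulosa change to see whether the layers differed. In theca 6 probe sets passed between large and small follicles (0.0348% of those tested). The difference between the layers passed for 2 probe sets (0.0116%), those of CCL5 and UCP2. CCL5 changed by 4.50 in granulosa and -0.28 in theca, a difference of 4.78 (limma, adjusted p = 0.036). UCP2 changed by 2.89 and -0.91, a difference of 3.79 (limma, adjusted p = 0.0419). Neither passed without large 1 or without either small granulosa array, when 0 differences were called, while 268 were called without large 2. CYP19A1 rose in theca too, by 5.70, as did TNFAIP6 by 4.53, and INHBA rose there by 4.54. The 17 tested granulosa markers, CYP19A1 among them, summed to 15203 and 20348.5 on the theca small arrays. On the theca large arrays they summed to 29952 and 42231. What part granulosa cells had in the rises on theca arrays was not tested. SPP1 gave 3.56 in theca and was not called there (limma, adjusted p = 0.134). C1QA gave 0.68, CD68 0.70, S100A12 0.25 and CD3E -0.10 in theca, with 0 of them called, but their differences between the layers did not pass.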

How the data were processed

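Transcripts were read on 12 one-colour Affymetrix bovine arrays, 2 per group, per the labels. The authors deposited linear signal intensities, 1 per probe set and array, and which software made them is not given in the sources used here. A common scale had been applied, since the 2% trimmed mean was 125.03 to 125.04 on every array, and detection calls were not used here. Of 24128 probe sets 112 were controls. Among the other 24016, 13292 had 1 gene symbol, 86 had several and 10638 had none. Symbols came from the platform annotation, and 13263 named probe sets were found in the RefSeq gene table of assembly ARS-UCD2.0, with 0 symbols changed.

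The analysis scale was log2(signal + 16). Tests covered probe sets with a mean log2 value above the 40th percentile (a signal of 22.5) in 1 or more of the 6 groups. All 12 arrays entered a limma model (version 3.58.1, R 4.3.3) of group means, with 6 residual degrees of freedom and a moderated test without trend. Calls needed a Benjamini-Hochberg adjusted p under 0.05 over all 17236 tested probe sets. With 2 arrays per size an exact permutation test (two-sided) has a smallest p of 0.333, so none is given. The number of arrays limits the precision. Figures used matplotlib 3.10.9 under Python 3.11.15.

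A gene with several probe sets is represented by the tested one with the highest mean over all arrays. There were 36 gene lists, described by counts and medians only. Named genes were a fixed set of key genes and, per list, the called genes with the largest changes, up to 4 (10 for macrophages). To these were added the 20 largest rises and falls among named genes, and the 10 largest of each that were also called without both arrays that stood apart. Other list members and genes in the closing observations were named after their values were seen. The comparison, lists and members were chosen with earlier results of these data known. The scripts were tested on simulated data.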

Additional observations from a re-analysis of the deposited data

Results flagged for a closer look

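For 2 genes the change from small to large follicles differed between the cell layers by a test of that difference. CCL5 changed by 4.78 more in granulosa than in theca on the log2 scale (limma, adjusted p = 0.036). UCP2 changed by 3.79 more (limma, adjusted p = 0.0419). Neither difference passed with log2(signal + 1), log2(signal + 64), no filter or quantile normalization, nor without large 1, small 1, small 2 or both arrays that stood apart. With the replicate number as a block 1 difference passed. In granulosa both were higher on both large arrays than on both small ones.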

How the results depend on the processing

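All 70 called named genes kept their direction under every alternative tried. For all 313 rises and 69 falls, however, the large and small arrays did not overlap. Leaving out an array or changing the added constant could thus not reverse a direction. With log2(signal + 1) 224 probe sets passed (189 up, 35 down), and with log2(signal + 64) 158 (123 up, 35 down). Without the filter 43 fell, and after median centring 151 fell. Quantile normalization gave 358 calls and limma with trend 396. Leaving out 1 array gave 0 to 635 calls, 0 to 541 rises, 0 to 94 falls and 0 to 19 rising macrophage genes. Without both arrays that stood apart there were 58 calls (43 up, 15 down) and 5 macrophage genes. The layer difference passed for 0 probe sets with log2(signal + 1), log2(signal + 64), no filter, quantile normalization, or without both arrays that stood apart, and for 0 to 268 when 1 array was left out. Replicates share numbers in the titles, with no statement that a number pairs pools. Deviations of same-numbered large and small arrays correlated at 0.212. With the replicate number as a block 425 probe sets passed, and the layer difference passed for 1. The cause of these shifts was not tested. Signals under the added 16 carry little information, so folds of dim genes are understated.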

Other observations

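Some rises lay outside the lists and were not larger on large 1, and they were picked after their values were seen. OXT, the peptide hormone oxytocin that granulosa cells make around ovulation, read 102 and 82.8 on the small arrays and 565 and 617 on the large ones (2.49 ± 0.52, limma, adjusted p = 0.0219). It stood at 127 and 107 in medium follicles, and its change in theca was 2.90. TTR, a carrier of thyroid hormone and retinol-binding protein, rose by 2.46 ± 0.35, from 5.2 and 4.5 to 82.4 and 117, with 27.5 and 25.2 in medium follicles. APOA2, a lipoprotein component, rose by 2.63 ± 0.47 and SLC2A5, a fructose transporter, by 2.58 ± 0.30. Both large arrays of SLC2A5 were close, at 251 and 244. One probe set of IGF2 went from 80.2 and 90.9 to 247 and 396 (1.70 ± 0.36), while the brightest one was not called. AVPR1A, a vasopressin receptor, fell from 33 and 36 through 10 and 11 in medium follicles to 3.9 and 4 in large ones (-1.34 ± 0.32, limma, adjusted p = 0.046).

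Further genes known from leukocytes rose that no list held. IGHM, the heavy chain of immunoglobulin M, went from 82.6 and 59.6 to 682 and 636 (2.97 ± 0.40, limma, adjusted p = 0.00417), and JCHAIN, which joins immunoglobulin chains, rose by 2.65 ± 0.44. The large arrays were nearly level for IGHM. The integrin chain ITGB2 rose by 2.95 ± 0.54, the folate receptor of macrophages FOLR2 by 3.36 ± 0.53, and the pattern receptors TLR2 and TLR4 by 2.48 and 1.95. For ITGB2 large 1 read 840.0 and large 2 read 212, the order most leukocyte genes had.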
